A study of Mus musculus with 2 samples.

Results

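The PPAR, ERR and PGC-1 regulators are 10 genes, chosen by name from the 55536 genes of the quantification tables: the receptors Ppara, Ppard and Pparg, their partners Rxra and Rxrg, the estrogen-related receptors Esrra, Esrrb and Esrrg, and the coactivators Ppargc1a and Ppargc1b. All 10 were found, and each held a whole number of expected counts in both libraries. The tissue was the gastrocnemius, the main muscle of the calf, of female B6CASTF1/J mice, the F1 hybrid of C57BL/6J and CAST/EiJ, obtained from The Jackson Laboratory, and its total RNA was sequenced. The description in the labels gives an age of 18 to 20 months, while their age field holds no value, and the labels name no treatment and an input of 300 ng of RNA with ERCC spike-ins, which are synthetic RNAs added to each sample. They describe 1 group with 2 biological replicates, from tissue samples with different identifiers but 1 shared donor identifier, so separate animals rest on the replicate labels alone. With 1 library against 1 there was no replicate check of any difference and no p-value. All differences are therefore those of replicate 2 over replicate 1, and they describe these libraries, not a condition.

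PPARs are nuclear receptors that bind fatty acids and related lipids and sit on DNA as pairs with an RXR. In skeletal muscle they are known for controlling genes of fatty acid uptake, storage and oxidation. ERRs resemble the estrogen receptors but act without an established hormone, and bind control regions of genes for respiration and the citric acid cycle. PGC-1 proteins do not bind DNA themselves. They dock on PPARs, ERRs and other factors, and their RNA is known to respond to exercise, fasting and cold.

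Expected counts of genes, which are reads assigned by the RSEM program, summed to 38654555 in replicate 1 and 43722892 in replicate 2. Levels are in TPM, a measure of transcript abundance corrected for length and library size, so they can be compared between genes. Ratios rest on counts after TMM scaling, which sets the bulk of the genes level between libraries. Of 12969 genes whose counts summed to 50 or more, 350 lay at least 2-fold higher in replicate 2 (2.70%) and 252 at least 2-fold lower (1.94%), and the median log2 ratio was -0.00. Scaling by the spike-in totals moved that median to -0.22 and the split to 244 higher and 440 lower. Scaling by total gene counts gave -0.15, with 273 higher and 350 lower, and the ratio of TPM gave -0.15, with 276 higher and 324 lower. Markers of slow fibres were all higher in replicate 2: each of the 10 on the list lay past 2-fold, at a median log2 ratio of 2.52, and their summed level was 1329 TPM in replicate 1 and 4725 TPM in replicate 2. The 11 fast fibre markers summed to 91450 and 84627 TPM, so both libraries carried the markers of the labelled muscle. In whole muscle, a different number of cells of a type and a different amount of RNA per cell cannot be told apart.

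The regulators spanned a wide range of levels, led by Rxra at 59.0 ± 0.785 TPM (SD, n = 2) and ended by Pparg at 1.25 ± 0.389 TPM. Between them came Esrra at 29.1 ± 6.20, Rxrg at 26.2 ± 0.297, Ppard at 12.6 ± 1.52, Ppargc1a at 11.3 ± 3.48, Esrrg at 6.20 ± 3.45, Ppara at 5.84 ± 5.51, Ppargc1b at 4.06 ± 0.820 and Esrrb at 1.88 ± 0.912 TPM. The values of neighbours in this order overlapped between libraries for Esrra and Rxrg, Ppard and Ppargc1a, Esrrg and Ppara, Ppara and Ppargc1b, and Esrrb and Pparg. They did not overlap for Rxra and Esrra, Rxrg and Ppard, Ppargc1a and Esrrg, or Ppargc1b and Esrrb. By kallisto, a quantifier that assigns reads to transcripts without a genome alignment, Esrra and Rxrg no longer overlapped and Ppargc1a and Esrrg did. Kallisto TPM had a median of 1.34 times the RSEM value over 12744 genes. A level of at least 1 TPM in both libraries was met by 9 of the 10, with Pparg at 0.97 TPM in replicate 1.

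**Figure D1:**
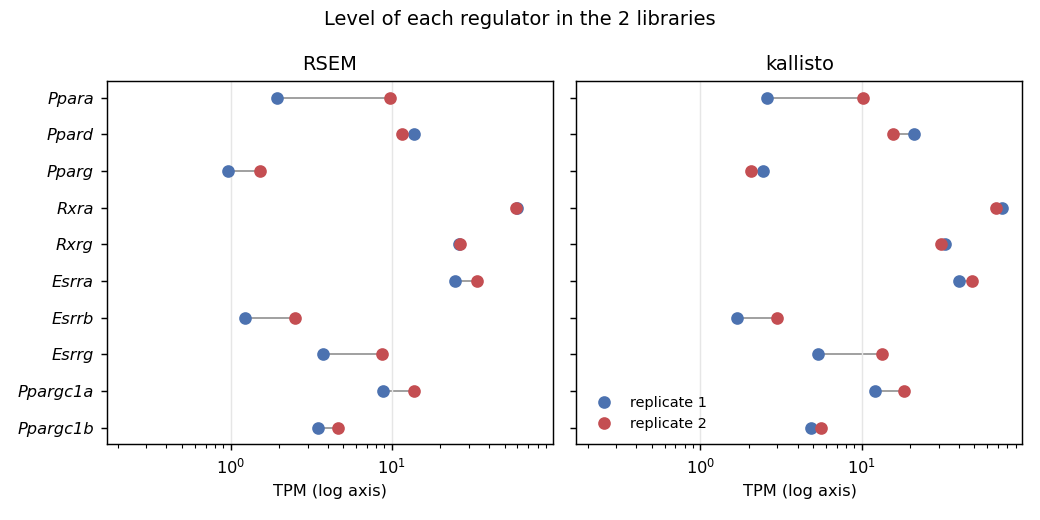
Level of the 10 regulators in each library, in TPM on a log axis, from RSEM (left) and kallisto (right), with a grey line joining the 2 replicates of a gene. The points of Rxra lie at 59.6 and 58.5 TPM by RSEM and nearly coincide, while those of Ppara lie at 1.94 and 9.73 TPM.

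Between the libraries, 3 of the 10 regulators lay at least 2-fold higher in replicate 2, namely Ppara, Esrrg and Esrrb, beside 2.70% of all genes compared, and 0 lay at least 2-fold lower, beside 1.94%. At 1.5-fold, 5 were higher, now with Pparg and Esrra, beside 7.36% of genes, and 0 were lower, beside 6.33%. Esrra fell short of 1.5-fold with spike-in totals, total counts and the ratio of TPM, at log2 ratios of 0.38, 0.46 and 0.44, and Pparg with spike-in totals, at 0.57. Ratios of 9 of the 10 were above 0, against 49.8% of all genes, and the median log2 ratio of the 10 was 0.58. Ppard lay below 0, joined by Rxra and Rxrg when spike-in totals or total counts set the scale, and by Rxra in the ratio of TPM. The slow fibre markers named above moved the same way as these ratios, and their part in the result was not tested.

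**Figure D2:**
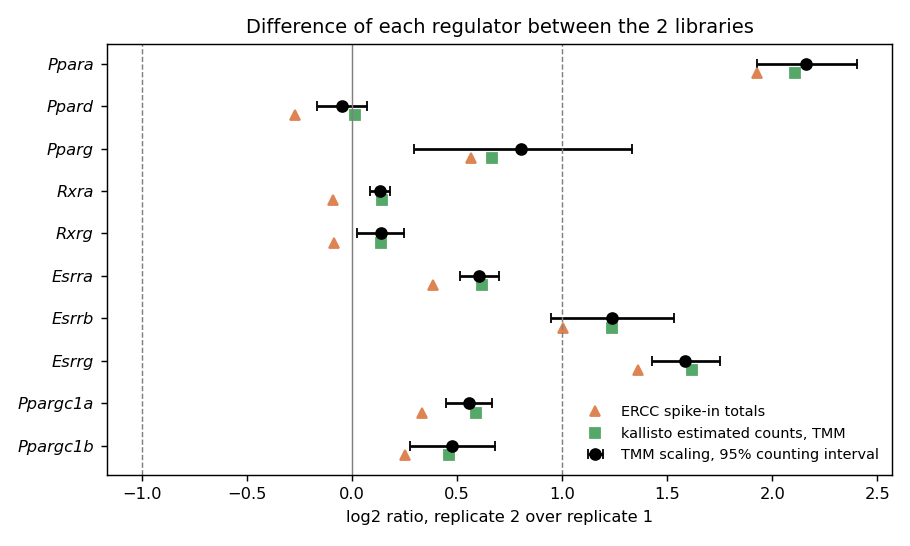
Log2 ratio of replicate 2 over replicate 1 for each regulator, with 0 as a solid line and 2-fold as dashed lines. Black points are the ratio of TMM-scaled counts with the 95% interval of the counts alone, triangles the ratio scaled by spike-in totals and squares that of kallisto counts. Ppara, Esrrb and Esrrg lie past 2-fold under each of the 3.

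Ppara, the PPAR of tissues that burn fat, gave the widest ratio of the group. The gene (ENSMUSG00000022383.13) lies on the plus strand at chr15:85734983-85802819 of mm10. It held 179 counts and 1.94 TPM in replicate 1, and 817 counts and 9.73 TPM in replicate 2. Replicate 2 was thus 4.47 times higher, with a 95% interval of 3.80 to 5.29 that covers counting error alone. On the log2 scale this is 2.15, above the ratio of 99.6% of the genes compared. Among the 4264 genes within 2-fold of its summed count, 1.76% lay at least 2-fold higher. By kallisto its level was 2.58 and 10.2 TPM.

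Ppard, the PPAR present in most tissues and the most abundant one in both libraries, hardly differed in scaled counts. The gene (ENSMUSG00000002250.16, chr17:28232700-28301474, plus strand) held 1137 and 1122 counts, or 13.7 and 11.5 TPM. Its scaled counts gave a fold of 0.967 (0.889 to 1.05) and a log2 ratio of -0.05, which kallisto counts put at 0.01. Kallisto TPM was lower in replicate 2, at 21.1 and 15.7. The balance of the PPARs therefore differed between the libraries. Ppard made up 82.4% of their summed TPM in replicate 1 and 50.6% in replicate 2, while Ppara made up 11.7% and 42.7%. Ppard stood 7.05 times above Ppara in replicate 1 but 1.18 times above it in replicate 2, and kallisto gave 8.19 and 1.53.

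Pparg, the PPAR that drives fat cell formation, was the scarcest of the 10. The gene (ENSMUSG00000000440.12, chr6:115360951-115490399, plus strand) held 51 and 91 counts, at 0.97 and 1.52 TPM. The fold of 1.75 had a wide counting interval, 1.23 to 2.51, and the log2 ratio was 0.78. Kallisto TPM went the other way, at 2.43 in replicate 1 and 2.07 in replicate 2, though kallisto counts gave a log2 ratio of 0.67. All 7 adipocyte markers compared, of 9 listed, were above 0, against 49.8% of all genes. Their median log2 ratio was 0.43, and the list summed to 114 and 131 TPM. Ratios of this list under other scalings are not given here. Fabp4, the fatty acid carrier of adipocytes, stood at 55.8 and 59.9 TPM, Cfd, a secreted protease, at 42.8 and 48.7 TPM, and Adipoq, the hormone adiponectin, at 4.36 and 4.77 TPM. Pck1, an enzyme of glyceride and glucose synthesis, was the 1 past 2-fold, at 1.13 and 4.75 TPM, beside 2.70% of all genes higher and 1.94% lower. Retn, the hormone resistin, lay at the threshold with 46 and 94 counts, at a fold of 2.00 but a log2 ratio of 0.97 once the prior count was added. The part of adipocytes in the Pparg level was not tested.

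The RXR partners stood at nearly the same TPM in both libraries. Rxra, the common partner of PPARs (ENSMUSG00000015846.14, chr2:27676440-27762957, plus strand), held 7022 and 7855 counts, at 59.6 and 58.5 TPM. Its fold was 1.10 (1.06 to 1.13). Rxrg, an RXR found mainly in muscle and brain (ENSMUSG00000015843.10, chr1:167598384-167639623, plus strand), held 1227 and 1375 counts, at 26.0 and 26.5 TPM, with a fold of 1.10 (1.02 to 1.19). Both gave a log2 ratio of 0.13 with TMM and of -0.09 with the spike-in totals, where the median gene lay at -0.22. Rxra exceeded Rxrg 2.29-fold in replicate 1 and 2.21-fold in replicate 2. Rxrb, the RXR that is not among the 10, stood at 16.9 and 15.3 TPM, with a log2 ratio of 0.02. Summed over Rxra and Rxrg, RXR levels were 85.6 and 84.9 TPM, against 16.6 and 22.8 TPM for the PPARs together.

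Most Rxrg transcripts were assigned to a start inside the gene. The transcript Rxrg-202 begins 19925 bases downstream of the first annotated start, and RSEM gave it 79.9% of Rxrg transcript TPM in replicate 1 and 86.9% in replicate 2. Kallisto gave 69.5% and 66.7%. The first start held 305 and 222 expected counts by RSEM and 440 and 509 by kallisto, so the tools differed on which library was higher there, and no difference between libraries is read from it. The 250 bases before both starts are printed because reads divide between them. They come from RefSeq promoter windows on GRCm38.p6, 5′ to 3′, with any match to the motifs searched in capitals.
Rxrg first start, chr1:167598112-167598361, plus strand: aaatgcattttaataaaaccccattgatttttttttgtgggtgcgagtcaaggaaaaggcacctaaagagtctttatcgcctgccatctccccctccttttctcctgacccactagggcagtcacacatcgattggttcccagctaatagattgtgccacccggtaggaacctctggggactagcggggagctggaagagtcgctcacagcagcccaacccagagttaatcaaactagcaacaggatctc
Rxrg downstream start, chr1:167618015-167618264, plus strand: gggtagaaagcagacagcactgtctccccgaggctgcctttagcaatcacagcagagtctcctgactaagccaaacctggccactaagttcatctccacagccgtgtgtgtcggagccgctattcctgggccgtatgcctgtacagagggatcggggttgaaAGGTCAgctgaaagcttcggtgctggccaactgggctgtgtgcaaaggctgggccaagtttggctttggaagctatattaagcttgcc
Capitals in the downstream sequence mark AGGTCA, the core element that nuclear receptors of this class recognise, 88 bases before the RefSeq start. The upstream sequence held none of the 4 motifs searched. RefSeq places these starts 22 and 44 bases upstream of the nearest GENCODE M21 starts.

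Among the ERRs, Esrra was by far the most abundant and Esrrg and Esrrb differed most between libraries. Esrra (ENSMUSG00000024955.14, chr19:6910977-6921813, minus strand), the ERR of most oxidative tissues, held 1491 and 2316 counts, at 24.7 and 33.5 TPM. Replicate 2 was 1.52 times higher (1.43 to 1.63), a log2 ratio of 0.61. Esrrg (ENSMUSG00000026610.13, chr1:187608791-188214885, plus strand), an ERR enriched in heart and slow muscle, held 416 and 1275 counts, at 3.76 and 8.64 TPM. Its fold was 3.00 (2.69 to 3.36), with a log2 ratio of 1.58, above 98.9% of the genes compared. Of 3949 genes of like count, 1.70% lay at least 2-fold higher.

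Esrrb, best known from stem cells, was the lowest ERR. The gene (ENSMUSG00000021255.17, chr12:86361117-86521628, plus strand) held 141 and 339 counts, at 1.23 and 2.52 TPM. Its fold of 2.36 (1.93 to 2.89) had a lower bound below 2-fold, and the ratio of TPM gave a log2 value of 0.98 in place of 1.22. Of 3916 genes of like count, 2.09% were at least 2-fold higher. Esrra held 83.2% of ERR TPM in replicate 1 and 75.0% in replicate 2, Esrrg 12.7% and 19.3%, and Esrrb 4.14% and 5.64%. Esrra exceeded Esrrg 6.58-fold and 3.88-fold by RSEM, and 7.47-fold and 3.59-fold by kallisto.

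Esrrg had reads assigned to annotated starts far apart. Its downstream start lies 389036 bases beyond the first and carried 392 and 941 expected counts, while the first start carried 24.4 and 334. As a share of the gene's expected counts the first start thus took 5.88% and 26.2%. As a share of TPM it took 30.9% and 36.0%, because Esrrg-204, a short model of 450 bases, turned 9.09 counts into 0.89 TPM in replicate 1. The longer Esrrg-203, named here after its values were seen, held 13.4 and 321 expected counts, and kallisto gave 30.5 and 457. By kallisto the first start took 38.4% and 53.8% of TPM. Kallisto counts were 37.0 and 474 at the first start and 418 and 954 at the downstream one. The share of the first start was higher in replicate 2 in both units and by both tools. Its size depended on the unit and the tool. Sequences before the RefSeq starts nearest to both are shown so that these can be compared. For the first, RefSeq places the start 23 bases upstream of Esrrg-203. The printed stretch therefore runs past the start of Esrrg-204, at chr1:187608791, and is not the sequence before that model.
Esrrg first start, chr1:187608756-187609005, plus strand: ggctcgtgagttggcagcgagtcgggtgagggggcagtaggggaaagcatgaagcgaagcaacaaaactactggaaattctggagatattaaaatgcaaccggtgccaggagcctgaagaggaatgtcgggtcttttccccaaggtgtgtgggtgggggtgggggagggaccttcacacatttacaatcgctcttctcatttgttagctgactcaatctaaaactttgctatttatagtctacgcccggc
Esrrg downstream start, chr1:187997577-187997826, plus strand: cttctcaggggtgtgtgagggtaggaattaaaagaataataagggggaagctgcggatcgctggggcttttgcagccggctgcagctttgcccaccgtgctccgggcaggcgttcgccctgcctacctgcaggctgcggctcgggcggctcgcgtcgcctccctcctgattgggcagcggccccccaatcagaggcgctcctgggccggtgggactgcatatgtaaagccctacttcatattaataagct
Neither holds a match to the motifs searched, so no base is in capitals. Their 300-base windows had GC contents of 54.0% and 60.0% and 15 and 19 CpG dinucleotides, against medians of 52.7% and 7 over 32851 promoter windows.

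For Esrrb the tools placed the start differently. RSEM gave 0% and 31.5% of TPM to the first start, and kallisto 44.5% and 44.1%. The gene held 141 and 339 counts, and no share is read from the split.

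Both PGC-1 coactivators were moderately higher in replicate 2. Ppargc1a, the main PGC-1 of oxidative muscle (ENSMUSG00000029167.13, chr5:51454250-51567726, minus strand), held 1161 and 1743 counts, at 8.86 and 13.8 TPM. The fold was 1.47 (1.36 to 1.59) and the log2 ratio 0.56. Ppargc1b, its close relative (ENSMUSG00000033871.14), held 347 and 493 counts, at 3.48 and 4.64 TPM, with a fold of 1.39 (1.21 to 1.60) and a log2 ratio of 0.47. Neither lay past 1.5-fold with TMM, but Ppargc1a did by kallisto counts, at a log2 ratio of 0.59, and in the ratio of TPM, at 0.63. Ppargc1a made up 71.8% of PGC-1 TPM in replicate 1 and 74.8% in replicate 2, so the balance of the coactivators was nearly the same while that of the PPARs was not.

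Ppargc1a has a distal start 13804 bases upstream of the proximal one, known as the alternative promoter that exercise and adrenergic signals engage in muscle. The proximal start carried 8.37 and 9.57 TPM, and the distal start 0.49 and 4.21 TPM. The distal share was thus 5.53% and 30.6%, and 18.4% and 29.9% by kallisto. Counts behind it were few: 33.1 and 166 expected counts by RSEM, but 117 and 122 by kallisto. Of these, Ppargc1a-204 held 33.1 and 134 by RSEM and 117 and 102 by kallisto. That model is annotated for nonsense-mediated decay, the breakdown of RNAs with an early stop. In replicate 2 the short model Ppargc1a-202, of 488 bases, turned 31.5 counts into 2.47 TPM. As a share of expected counts the distal start took 2.85% and 9.52%. Kallisto counts at the proximal start were 1146 and 1812, so the distal share of kallisto counts was lower in replicate 2. The distal start was the minor one in both libraries by every measure, but the size and direction of its difference depended on the measure. Its sequence is printed because the isoforms of the gene differ in this start.
Ppargc1a distal start, chr5:51567726-51567975, minus strand: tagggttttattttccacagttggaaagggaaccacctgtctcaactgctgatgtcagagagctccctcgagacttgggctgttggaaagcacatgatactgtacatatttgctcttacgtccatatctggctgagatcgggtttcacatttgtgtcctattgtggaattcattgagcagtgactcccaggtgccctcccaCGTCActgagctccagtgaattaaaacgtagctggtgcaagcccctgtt
Capitals mark TGACG on the opposite strand, the core of the element bound by CREB and related factors, from 49 bases before the start. The window had a GC content of 48.7% and 5 CpG dinucleotides, the fewest GC bases of the 5 sequences shown.

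**Figure D3:**
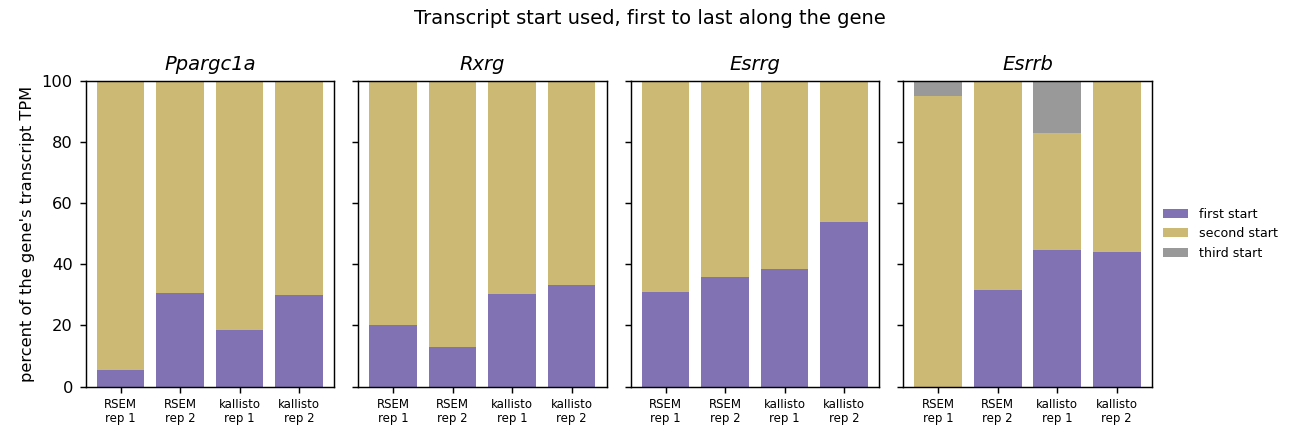
Percent of each gene's transcript TPM assigned to each annotated start, for 4 regulators with several starts, by library and tool. Starts are numbered along the direction of transcription. For Rxrg the downstream start holds the larger part in all 4 bars, while for Esrrb the bars of RSEM and kallisto differ.

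Apart from Pparg, the other regulators had most of their TPM assigned to 1 group of starts. Ppara, Esrra and Ppargc1b had all their RSEM and kallisto TPM in the first group of starts. Ppard had 93.1% and 93.8% there and Rxra 91.3% and 91.1%. One coding transcript carried most of the RSEM TPM of Rxra (Rxra-201, 80.1% and 80.8%), Ppard (Ppard-201, 81.2% and 86.3%), Esrra (Esrra-201, 93.0% and 96.2%), Ppara (Ppara-202, 85.1% and 62.4%) and Ppargc1b (Ppargc1b-202, 64.7% and 72.2%). Kallisto gave Ppargc1b-202 45.7% and 57.2%, so that Ppargc1b-201 led in replicate 1 with 54.3%. Ppargc1a was split mainly over Ppargc1a-203, with 49.4% and 44.4%, and Ppargc1a-205, with 26.5% and 25.0%. Ppargc1a-201, a proximal model annotated for nonsense-mediated decay, took 18.5% and 0% by RSEM, but 8.75% and 10.1% by kallisto. Pparg had too few counts to divide.

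Targets that PPARs are known to control in muscle were mostly higher in replicate 2. Of 28 listed, 27 had enough counts, 26 of these were above 0, and 5 lay at least 2-fold higher with 0 lower, at a median log2 ratio of 0.57. For this and the following lists, the same shares over all genes compared were 49.8% above 0, 2.70% higher and 1.94% lower, at a median of -0.00. The most abundant was Pdk4, the kinase that holds back glucose oxidation, at 172 and 575 TPM, a fold of 3.55 (3.48 to 3.62). Fabp3, the fatty acid carrier of muscle, stood at 114 and 269 TPM, a fold of 2.61 (2.49 to 2.73). Lpl, which frees fatty acids from lipoproteins, stood at 65.4 and 148 TPM, and Ucp3, a mitochondrial carrier of the uncoupling protein family, at 37.3 and 89.0 TPM. Their folds were 2.51 (2.44 to 2.58) and 2.69 (2.56 to 2.82). Angptl4, a secreted inhibitor of Lpl, rested on 23 and 118 counts, a fold of 5.03 (3.20 to 8.24). Hadhb, a subunit of the mitochondrial beta-oxidation complex, was among the 3 most abundant and short of the threshold, at 133 and 176 TPM. The exception below 0 was Acot1, a thioesterase that shares reads with near-identical copies, at -0.23. Cyp4a10, a target in liver, held 0 and 1 counts.

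Respiratory and mitochondrial targets of ERRs and PGC-1 lay above 0 in 30 of 33, at a median log2 ratio of 0.44, but 1 lay past 2-fold. That was Cox7a1, the muscle form of a cytochrome oxidase subunit, at 220 and 411 TPM, a fold of 2.07 (1.96 to 2.19). It fell short of 2-fold by kallisto and under the spike-in, total count and TPM scalings. Atp5b, a subunit of ATP synthase, stood at 1172 and 1482 TPM, Slc25a4, the ADP/ATP carrier of muscle, at 1052 and 1250 TPM, and Cox8b, a further cytochrome oxidase subunit, at 723 and 892 TPM. The 3 below 0 were Vegfa, a growth factor of vessels, at -0.40, and the transcription factors Nrf1 at -0.22 and Gabpa at -0.12, which were named after their values were seen. The difference between this list and the PPAR targets was not tested.

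Partners and cofactors did not share that direction. Of 12 partners and related coactivators, 5 were above 0, at a median log2 ratio of -0.04. Perm1, a muscle regulator that PGC-1 and ERRs induce, was the 1 past 2-fold, at 34.4 and 62.6 TPM, a fold of 2.02 (1.94 to 2.10). It fell short of 2-fold under the spike-in, total count and TPM scalings. Lpin1, a lipid phosphatase that also acts as a coactivator, was the most abundant at 159 and 107 TPM, and Ep300, an acetyltransferase, stood at 19.2 and 18.1 TPM. Of 10 corepressors and competing repressors, 8 had enough counts, 1 was above 0 and 0 lay past 2-fold either way, at a median of -0.10. Ncor1, a corepressor of nuclear receptors, stood at 63.9 and 54.9 TPM, and Hdac3, a deacetylase that it recruits, at 28.6 and 23.0 TPM.

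Kinases and factors upstream of PGC-1 were level as a group. Of 20 listed, 19 had enough counts, 10 were above 0, and the median log2 ratio was 0.02, which turned negative under the scalings by spike-ins, total counts and TPM. Foxo1, a forkhead factor of fasting muscle, was the 1 past 2-fold, at 6.68 and 15.8 TPM, a fold of 2.62 (2.48 to 2.77). Mef2c, a muscle transcription factor, stood at 203 and 189 TPM, Camk2a, a calcium-dependent kinase, at 162 and 169 TPM, and Ppp3ca, the catalytic subunit of calcineurin, at 93.2 and 89.1 TPM. Among 19 other nuclear receptors of muscle metabolism, 18 had enough counts, 8 were above 0 and 0 lay past 2-fold, at a median of -0.03. Nr4a1, an immediate early receptor, stood at 66.9 and 90.4 TPM, and Rora, a receptor tied to the circadian clock, at 52.6 and 37.2 TPM.

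**Figure D4:**
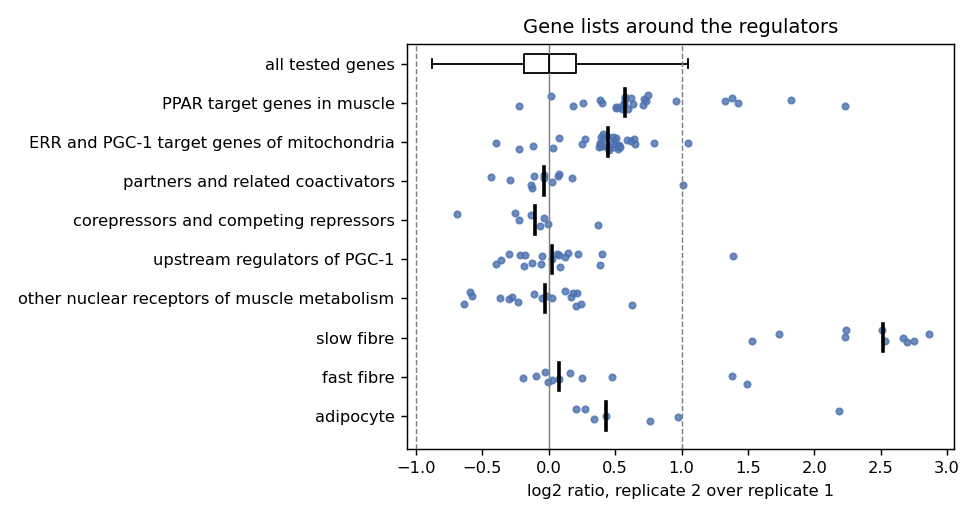
Log2 ratio of replicate 2 over replicate 1 for each gene of 9 lists (points) with the list's median (black bar), under a box of all 12969 genes compared (median and quartiles, whiskers spanning the middle 95% of genes, from -0.88 to 1.05). Dashed lines mark 2-fold. Slow fibre markers lie farthest right, and the PPAR and ERR target lists lie mostly above 0.

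Markers of fibre types and other cells were read in the same libraries. The slow fibre ratios ran from 1.53 to 2.86, with Mb, the oxygen carrier myoglobin, at 873 and 2283 TPM, Myl2, the slow regulatory light chain, at 94.2 and 481 TPM, and Myh7, the slow myosin heavy chain, at 65.8 and 409 TPM. The fast fibre list had a median log2 ratio of 0.07, and 2 of its 11 genes lay past 2-fold, Myh1 at 727 and 1709 TPM and Myh2 at 419 and 1060 TPM, the myosins of the less glycolytic fast fibres. Its most abundant genes were Tnnt3 at 18345 and 15447 TPM, Myh4 at 14510 and 11446 TPM and Mylpf at 12763 and 12584 TPM. Endothelial markers had a median of -0.38 with 0 of 6 past 2-fold, led by Cdh5 at 14.3 and 14.7, Pecam1 at 14.8 and 12.0 and Egfl7 at 16.1 and 8.58 TPM. Macrophage markers had a median of 0.12, led by C1qa at 4.22 and 3.83, C1qb at 3.49 and 3.73 and Csf1r at 2.75 and 3.59 TPM, with Cd68 past 2-fold lower at 1.52 and 0.54 TPM.

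Brown fat, heart and liver markers were near the floor, with exceptions. Ucp1 and Elovl3, defining genes of brown fat, had 0 counts in both libraries. Of the other brown fat markers, Zic1 stood at 1.45 and 0.79 TPM and was past 2-fold lower on its counts, Dio2 at 0.63 and 0.37 TPM and Cidea at 0.31 and 0.54 TPM. Myl7, an atrial light chain, had 0 counts, Tnni3 had 1 in each library, and Tnnt2 stood at 2.07 and 1.46 TPM. Myh6, the heart's fast myosin, stood at 15.5 and 82.8 TPM, a gene whose sequence is close to that of Myh7 and whose counts were fractional. Apoa1 and Ttr had 0 counts, Alb 0 and 4, and Cyp2e1 stood at 3.29 and 5.98 TPM. The part of fibre type and of any other cell in the ratios of the regulators was not tested.

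Promoter windows were searched on both strands for 4 motifs. TNAAGGTCA, the response element of ERRs, was in 421 of 32851 windows (1.28%) and direct repeat 1, the element of PPAR and RXR pairs made of 2 copies of AGGTCA with 1 base between them, in 13 (0.0396%). Of 17 windows of 9 regulators, 0 held either, as did 0 of 23 windows of 21 PPAR targets and 0 of 35 of 26 ERR targets. Matches had to be exact and were rare over all windows, so 0 in so few windows says nothing about these genes. AGGTCA, which lies inside both longer motifs, was in 16.3% of all windows, 4 of 17 of the regulators, 7 of 23 of PPAR targets and 3 of 35 of ERR targets. TGACG was in 20.8% of all windows and in 4 of 17, 7 of 23 and 19 of 35. The regulator windows with AGGTCA belonged to Rxrg, Rxra and Pparg, and those with TGACG to Ppargc1a, Esrrb, Ppara and Ppard. A match describes the letters in a window and is not a binding site, and windows without one may lie far from the elements in use.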

How the data were processed

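Total RNA libraries from gastrocnemius of 2 replicates of 1 group were used. Per the file headers, genes and transcripts carry RSEM expected counts made by the authors, and transcripts also carry kallisto estimated counts. Per the file headers, TPM values were deposited beside both and were taken as given. Per the labels the build was mm10, and the transcript identifiers matched GENCODE M21. For the aligner, tool versions and strand setting, nothing is given in the sources used here. Both parents' alleles were counted on this reference, and any loss of CAST/EiJ reads was not measured.

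Expected counts were rounded. Genes whose counts summed to 50 or more were scaled by TMM and turned into log2 CPM with a prior count of 2 (edgeR 4.0.16, R 4.3.3), with the size factors of DESeq2 1.42.0 as an alternative scaling. A difference was called past 2-fold. Intervals of folds are conditional binomial ones (exact, 95%). They hold counting error alone. They can be too narrow even for that, because reads that carry no molecular identifier can be copies of 1 molecule. Starts within 1000 bases were grouped. Python 3.11.15 with numpy 2.4.6, pandas 2.3.3, scipy 1.17.1 and matplotlib 3.10.9 did the rest, and the steps were tested on simulated data with 200 changed genes. Spike-in rows stayed out of the gene totals, with 164563 and 195983 counts.

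The 10 genes and all lists were chosen with earlier results of these data known. The rule for named genes took all 10, from each other list the 3 of highest mean TPM, those past 2-fold and those without counts. Values of a few genes under this rule are left out here. The rule for transcripts took those at 10% or more of TPM in both libraries for genes with at least 100 counts in each. Some that met it are left out of the results, among them Esrrg-201, at 69.1% and 64.0% of RSEM TPM. Outside these rules, Rxrb, Acot1, Cyp4a10, Vegfa, Nrf1, Gabpa and Retn were named after their values were seen. So were the models Esrrg-203, Esrrg-204, Ppargc1a-201, Ppargc1a-202 and Ppargc1a-204. Motifs AGGTCA and TGACG, and the share of expected counts per start, were added after the data were seen. Alternatives were other scalings, filters, prior counts, folds and quantifiers. Promoter windows came from RefSeq, build GRCm38.p6, and 9 of the 10 genes are described with one. Protein sequences were not used here.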

Additional observations from a re-analysis of the deposited data

How the results depend on the processing

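Ppara and Esrrg lay past 2-fold under every scaling, filter, prior count and quantifier tried, and Esrrb under all but the ratio of TPM and the filter at 500 counts, which removes it and Pparg. At 1.5-fold the count of regulators higher was 5 in place of 3, that of PPAR targets 13 in place of 5, and that of ERR and PGC-1 targets 6 in place of 1. The last count was 0 with spike-in totals, total counts, the ratio of TPM and kallisto. Over all genes, 1090 were higher and 1622 lower without a filter, 147 and 47 at 500 counts, and 955 and 821 at 1.5-fold, and 440 were lower with spike-in totals. The direction of small ratios depended on the scaling. For the list upstream of PGC-1 the median became -0.20 with spike-in totals, -0.12 with total counts, -0.18 with the ratio of TPM, -0.00292 without a filter and -0.0239 at 500 counts. For the log2 ratio of Rxra, spike-in totals gave -0.0903, total counts -0.0163 and the ratio of TPM -0.0271. For that of Rxrg, spike-in totals gave -0.0877 and total counts -0.0137. Kallisto gave 0.0144 for Ppard. At 5 TPM, 5 regulators counted as detected in both libraries. Leaving out a library gave 9 to 10 at 1 TPM, a distal share for Ppargc1a of 5.53% to 30.6% and a downstream share for Rxrg of 79.9% to 86.9%, where kallisto gave a mean of 68.1%. Causes of these shifts were not tested, apart from the fewer or more genes that a filter or a smaller fold admits. No paired analysis was possible because the labels give 1 group. Depth was not varied. The counting interval of the fold, relative to the fold, was widest for Pparg, which had the fewest counts, and all ratios rest on 1 library against 1.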
